A study of Mus musculus with 5 samples.

Results

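Glycolytic enzymes were followed in mouse fibroblasts that carry the receptor tyrosine kinase gene ERBB2. The genes taken were Hk1, Hk2, Pfkl, Pfkp, Aldoa, Tpi1, Pgk1, Pgam1, Ldha and Ldhb, and every probe that the platform annotation assigns to exactly 1 of these symbols was taken. This gave 12 probes for 9 of the 10 genes, out of 9669 genes and 20205 probes on the array. Pgam1, phosphoglycerate mutase, shares its probes with a pseudogene in the annotation and is not analysed here. Pfkp, Aldoa and Ldha have 2 probes each, and the other 6 genes have 1.

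Both cell lines are mouse. NIH3T3 is an immortalised fibroblast line, used here as the untransfected parent. The other line is NIH3T3 with constitutive overexpression of human HER-2/NEU (ERBB2) from a cytomegalovirus promoter; the labels call it Erbb2+ fibroblasts and do not say whether it is 1 clone. Both were kept in the same serum-containing DMEM, so neither line was treated. RNA of both was hybridised together to each of 5 two-colour cDNA arrays, 3 from preparation A (A1, A2, A3) and 2 from preparation B (B1, B2). The Erbb2+ RNA carried Cy3 on A1, A2 and B1 and Cy5 on A3 and B2.

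All values below are log2 ratios of Erbb2+ over NIH3T3 cells, so that -1 is a halving. No source used here states which dye is the numerator of the deposited ratios. Cy5 was taken because it is the first channel of every array, which makes the direction likely and not settled: under the opposite reading each sign turns and each size stays. A gene's value on an array is the mean of its probes there. Means ± SD are those of the 2 preparations, in each of which the dye orientations were averaged first. Where A3, B1 or B2 is left out below, a preparation lacks a dye orientation, so a dye effect no longer cancels there. The set of features tested then changes as well. Nothing in the labels says that the preparations were separate cultures, so p-values measure the spread between these samples, which may be technical. A ratio of whole cultures cannot tell fewer cells with an RNA from less of it per cell, and ratios carry no level, so neither the level of an enzyme nor the fibroblast identity of the lines can be read from them.

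The arrays held values for between 5368 (A1) and 17463 (B1) probes. Of the 14 fibroblast markers listed, 11 had a value and 8 were tested; 3 were lower, 1 was higher and 4 did not pass, with a median of -0.30. The matrix genes Col1a1, Fn1 and Col1a2 were lower, at -4.93 ± 0.75, -4.61 ± 0.13 and -3.97 ± 0.14 (SD, n = 2), further from 0 than any glycolytic enzyme tested, and Pi16 was higher, at 0.77 ± 0.22 (limma adjusted p = 0.0498). Of 49 markers of epithelium, endothelium, leukocytes, skeletal muscle and adipocytes, 27 had a value, 4 were tested and 0 passed, with a median of 0.17. The part of these markers' shifts in the results below was not tested. No probe is listed under Erbb2, so the transgene itself was not checked here.

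Glycolysis splits glucose into pyruvate in the cytosol and yields ATP without oxygen. Hexokinases and phosphofructokinases govern the flow at its start, aldolase splits the sugar into a pair of trioses, and the later enzymes recover ATP. Lactate dehydrogenase converts pyruvate to lactate and regenerates the NAD+ that the pathway needs. In growing and transformed cells much of the glucose ends as lactate. The transcription factors HIF-1 and MYC are known to induce many of these genes, HIF-1 through sites with the core ACGTG or GCGTG and MYC through CACGTG.

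Pfkp, Ldha and Aldoa, of the phosphofructokinase, lactate dehydrogenase and aldolase steps, were lower in Erbb2+ cells, at 0.385, 0.506 and 0.539 times the level in parental cells. These were the 3 members with a value in both dye orientations of both preparations, the condition for the test, which 32.4% of all genes with a probe met. All 3 were called lower (adjusted p under 0.05, limma), where 4.54% of the 4892 features tested were called lower, 5.33% of the 3134 genes among them, and 6.79% of the features in either direction. Their median log2 ratio was -0.98, against -0.02 over all features tested. Among the 6 members without a test, Ldhb, Pgk1 and Pfkl were below 0 on each array with a value, and Hk1, Hk2 and Tpi1 had both signs. Together, 6 of 9 members lay below 0 on every array with a value, against 17.9% of the 7662 genes with values on at least 2 arrays (79.2% of the genes with a probe). Of the genes with values on exactly 5 arrays, 13.2% were below 0 on all.

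**Figure D1:**
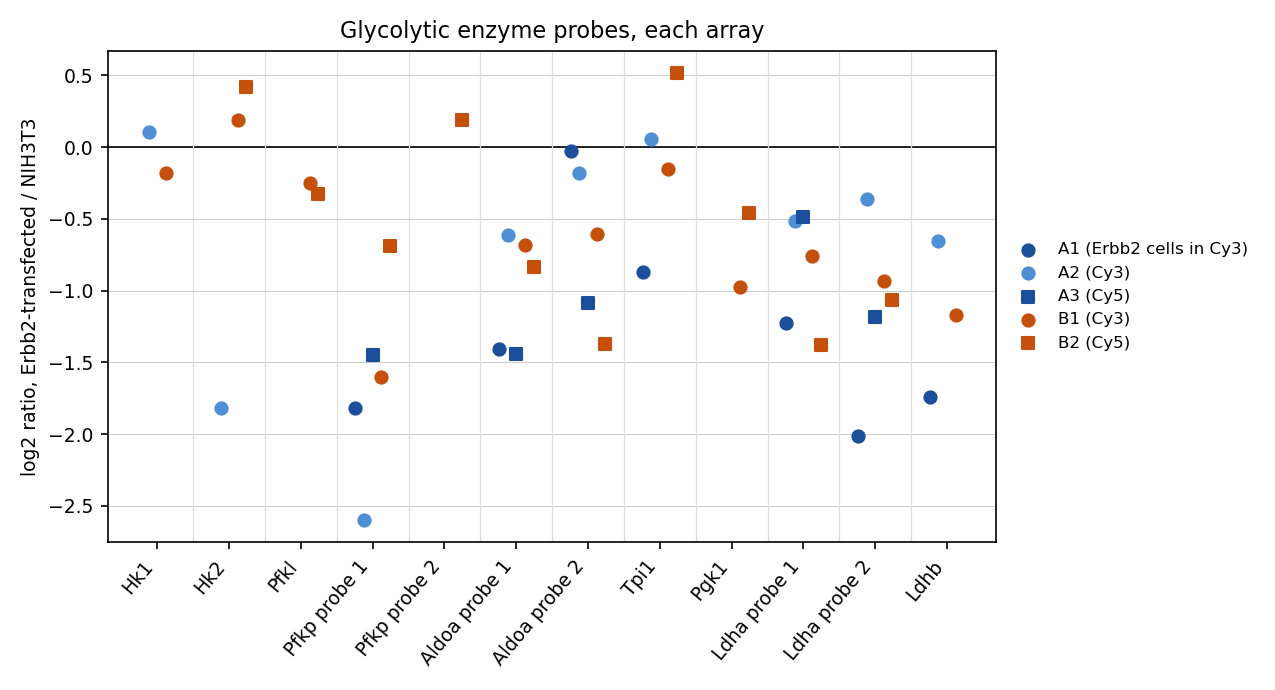
Log2 ratio of Erbb2-transfected over NIH3T3 cells (vertical axis) for each of the 12 probes (horizontal axis), 1 point per array; colour gives the preparation and array, circles have the Erbb2 RNA in Cy3 and squares in Cy5. The first probe of Pfkp and both probes of Aldoa and Ldha lie below 0 on all 5 arrays, whereas Hk2 lies at -1.82 on A2 and above 0 on B1 and B2.

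The hexokinases Hk1 and Hk2 phosphorylate glucose and so trap it in the cell; Hk1 is the broadly expressed form and Hk2 the inducible one. Hk1 had 0.10 on A2 and -0.18 on B1. These ratios were higher than those of 56.7% of the probes on A2 and 33.5% on B1, so Hk1 lay in the middle of both arrays. Hk2 had -1.82 on A2 but 0.19 on B1 and 0.42 on B2. It ranked above 1.64% of probes on A2, 66.5% on B1 and 77.8% on B2. The single array of preparation A with a value thus lay apart from both arrays of preparation B, with no further array of A to set beside it. Within an array, Hk1 minus Hk2 was 1.92 on A2 and -0.37 on B1.

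Phosphofructokinase commits the sugar to glycolysis. Pfkl encodes the liver-type and Pfkp the platelet-type subunit. Pfkl had values on preparation B alone, -0.25 on B1 and -0.33 on B2, above 28.3% and 31.1% of the probes there. The first probe of Pfkp had -1.82 on A1, -2.60 on A2, -1.45 on A3, -1.60 on B1 and -0.69 on B2. It was below 0 on every array, lowest on A2 and highest on B2. At most 3.06% of probes were lower on A1, A2, A3 and B1, and 16.8% were lower on B2.

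A second Pfkp probe had a value on B2 alone, 0.19, which lies on the other side of 0 from the first. As the gene value is the mean of the probes, it rises on B2 to -0.25 and the mean of preparation B to -0.93, against -1.83 in preparation A. Pfkp had -1.38 ± 0.64 (SD, n = 2; limma adjusted p = 0.00701). The first probe taken alone had -1.49 ± 0.48 (adjusted p = 2.30e-05 over 5014 features). By array, the Erbb2 RNA in Cy3 gave -2.01 on average for this probe and the RNA in Cy5 -1.07. Without array B1 the gene value was -1.04 and did not pass (adjusted p = 0.0541).

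The 250 bases before the start listed for Pfkp, chr13:6648772-6649021 (minus strand) of GRCm38.p6, are printed because the gene had the lowest ratio of the 3. Capitals here and in the sequences below mark ACGTG or GCGTG on either strand, printed 5′ to 3′ on the gene's strand.
Pfkp: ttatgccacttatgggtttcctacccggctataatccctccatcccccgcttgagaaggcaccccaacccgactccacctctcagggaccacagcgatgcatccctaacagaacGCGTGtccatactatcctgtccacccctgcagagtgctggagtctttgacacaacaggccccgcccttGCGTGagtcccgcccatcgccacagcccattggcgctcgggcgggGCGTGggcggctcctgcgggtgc
The window holds GCGTG at 3 sites, 136, 68 and 23 bases upstream of the start, and ACGTG at 0. Of 32851 mouse promoter windows of 250 bases, 28.2% hold GCGTG, and 2.57% hold 3 or more separate sites.

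Aldolase A, encoded by Aldoa, cleaves fructose bisphosphate into trioses and is the main aldolase of muscle and most cultured cells. The first Aldoa probe had -1.41 on A1, -0.61 on A2, -1.44 on A3, -0.69 on B1 and -0.83 on B2. A1 and A3 were the lowest arrays, and all 5 lay below 0. The second probe had -0.03 on A1, -0.18 on A2, -1.09 on A3, -0.60 on B1 and -1.37 on B2. It was close to 0 on A1 and A2 and well below on both arrays with the Erbb2 RNA in Cy5, with a mean of -0.27 in Cy3 and -1.23 in Cy5. The 2 probes therefore differed most on A1, where the first ranked above 3.52% and the second above 48.6% of probes.

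Averaged over both dye orientations, the probes came closer, at -0.99 ± 0.33 and -0.79 ± 0.28 (SD, n = 2; adjusted p = 0.00285 and 0.0182 over 5014 features). The gene had -0.89 ± 0.03 (SD, n = 2; limma adjusted p = 0.0235). That SD is smaller than either probe's because the first probe was lower in preparation A and the second in preparation B. Without A3, B1 or B2, Aldoa had -0.72, -1.01 and -0.78 and did not pass (adjusted p = 0.223, 0.0666 and 0.0895). It also did not pass after the arrays were scaled to equal spread (adjusted p = 0.0638) or quantile normalised (adjusted p = 0.0540).

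Aldoa has 3 listed starts, and 2 overlapping windows hold the same number of motif matches. The one at chr7:126799179-126799428 (minus strand) is shown for comparison with Pfkp.
Aldoa: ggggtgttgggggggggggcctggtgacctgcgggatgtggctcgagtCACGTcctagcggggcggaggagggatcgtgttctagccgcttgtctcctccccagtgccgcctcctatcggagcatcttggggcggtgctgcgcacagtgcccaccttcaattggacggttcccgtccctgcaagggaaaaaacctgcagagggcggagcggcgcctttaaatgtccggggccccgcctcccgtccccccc
It holds 1 ACGTG site, 202 bases upstream; the overlapping window also holds 1 and the third window none. ACGTG occurs in 16.6% of the 32851 windows.

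Triosephosphate isomerase, encoded by Tpi1, interconverts the trioses and had no common sign. Its ratio was -0.87 on A1, 0.06 on A2, -0.15 on B1 and 0.51 on B2. A1 was the lowest and B2 the highest, so both preparations held a value on each side of 0. On all 4 of these arrays it was above Ldha, by between 0.49 (A2) and 1.74 (B2). With no value on A3 it was outside the test. When features with at least 1 value in each preparation were tested, it had -0.11 (adjusted p = 0.868).

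Pgk1 encodes phosphoglycerate kinase, which makes the first ATP of the pathway's second part. It had values in preparation B alone, -0.97 on B1 and -0.46 on B2. Both lay below 0, above 2.41% of the probes on B1 and 25.2% on B2. Of the genes with values on exactly 2 arrays, 28.1% were below 0 on both. The upstream window of Pgk1 is chrX:106186850-106187099 (plus strand), shown because the Pgk1 promoter is a textbook target of HIF-1.
Pgk1: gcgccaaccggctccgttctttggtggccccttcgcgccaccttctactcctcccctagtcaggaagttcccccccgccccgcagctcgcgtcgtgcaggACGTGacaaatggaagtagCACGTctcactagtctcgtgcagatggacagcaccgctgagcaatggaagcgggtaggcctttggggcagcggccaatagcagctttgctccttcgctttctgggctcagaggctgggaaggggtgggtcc
It holds ACGTG at 2 sites, 150 and 131 bases upstream, and 1.95% of windows hold 2 or more.

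The lactate dehydrogenase subunits were both below 0 wherever they were measured. Ldha encodes the A (muscle) subunit and Ldhb the B (heart) subunit of the tetramer. The genes are paralogues, and whether a cDNA probe of either also reads RNA of the other was not tested. The first Ldha probe had -1.23 on A1, -0.51 on A2, -0.49 on A3, -0.76 on B1 and -1.38 on B2. The second had -2.02 on A1, -0.36 on A2, -1.18 on A3, -0.93 on B1 and -1.06 on B2. A2 was among the highest arrays for both probes, and A1 was the lowest or second lowest. At most 26.3% of the probes of an array lay below either of them.

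Ldha as a gene had -0.98 ± 0.07 (SD, n = 2; limma adjusted p = 0.0157), with -0.93 in preparation A and -1.03 in preparation B. Its probes taken alone had -0.87 ± 0.28 and -1.09 ± 0.13 (adjusted p = 0.00874 and 9.17e-04 over 5014 features). The SD of the gene again understates the spread between arrays, from -1.62 on A1 to -0.44 on A2. Without A3 it had -1.03 and without B2 -0.89, and neither passed (adjusted p = 0.0551 and 0.0540). It also did not pass after scaling to equal spread (adjusted p = 0.0568).

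Ldhb had -1.74 on A1, -0.66 on A2 and -1.17 on B1. It was low on A1 and less so on A2, in the same order as Ldha, and Ldha minus Ldhb was 0.12, 0.22 and 0.32 on these arrays. Only 2.14%, 13.5% and 1.36% of the probes lay lower. All 3 of its arrays had the Erbb2 RNA in Cy3, so a dye effect on this probe cannot be told apart from the difference between the lines. Of the genes with values on exactly 3 arrays, 17.9% were below 0 on all of them. With at least 1 value in each preparation required, it had -1.18 (adjusted p = 0.0536). Under that condition 11817 features were tested, 7 members among them, and no member passed; Pfkp, Ldha and Aldoa then had adjusted p = 0.0575, 0.0955 and 0.117 at the same log2 ratios.

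The upstream window of Ldha is chr7:46845554-46845803 (plus strand), for the 1 of its 2 listed starts with more matches. That of Ldhb is chr6:142507958-142508207 (minus strand). They are set side by side because both genes were below 0 while their upstream letters differ.
Ldha: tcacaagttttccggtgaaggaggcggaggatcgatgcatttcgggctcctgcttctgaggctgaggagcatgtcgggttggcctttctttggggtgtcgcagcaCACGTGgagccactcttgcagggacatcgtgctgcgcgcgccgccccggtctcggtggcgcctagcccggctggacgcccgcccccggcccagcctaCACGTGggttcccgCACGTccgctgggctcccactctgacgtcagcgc
Ldhb: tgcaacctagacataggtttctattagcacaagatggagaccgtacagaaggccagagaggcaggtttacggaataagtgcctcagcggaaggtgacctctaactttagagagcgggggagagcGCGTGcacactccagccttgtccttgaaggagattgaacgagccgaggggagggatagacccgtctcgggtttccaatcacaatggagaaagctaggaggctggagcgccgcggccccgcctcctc
The Ldha window holds ACGTG at 3 sites, 145, 48 and 34 bases upstream, and 2 of them are CACGTG, which reads the same on both strands. Such a number of ACGTG sites occurs in 0.256% of windows when 3 or more are counted, and CACGTG occurs at least once in 6.02%. The other Ldha start has 0 ACGTG and 1 GCGTG. In Ldhb, ACGTG is at 0 sites and GCGTG at 1, 126 bases upstream. A match says nothing about binding in these cells.

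Among the remaining members, the Hk2 window holds ACGTG at 2 sites, Hk1 holds GCGTG at 2 in 1 of its 2 windows, Pfkl holds GCGTG at 1, and Tpi1 holds neither. ACGTG was thus found in genes below 0 (Ldha, Aldoa, Pgk1) and in Hk2, whose sign differed between preparations. The windows of Pfkp, Ldhb and Pfkl, which were also below 0, hold GCGTG and not ACGTG. Of the members with both signs, Hk1 holds GCGTG, Hk2 ACGTG and Tpi1 neither. Pgam1, without a ratio here, holds ACGTG at 1 site and GCGTG at 2. GCGTG occurs in 28.2% of all windows and ACGTG in 16.6%.

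**Figure D2:**
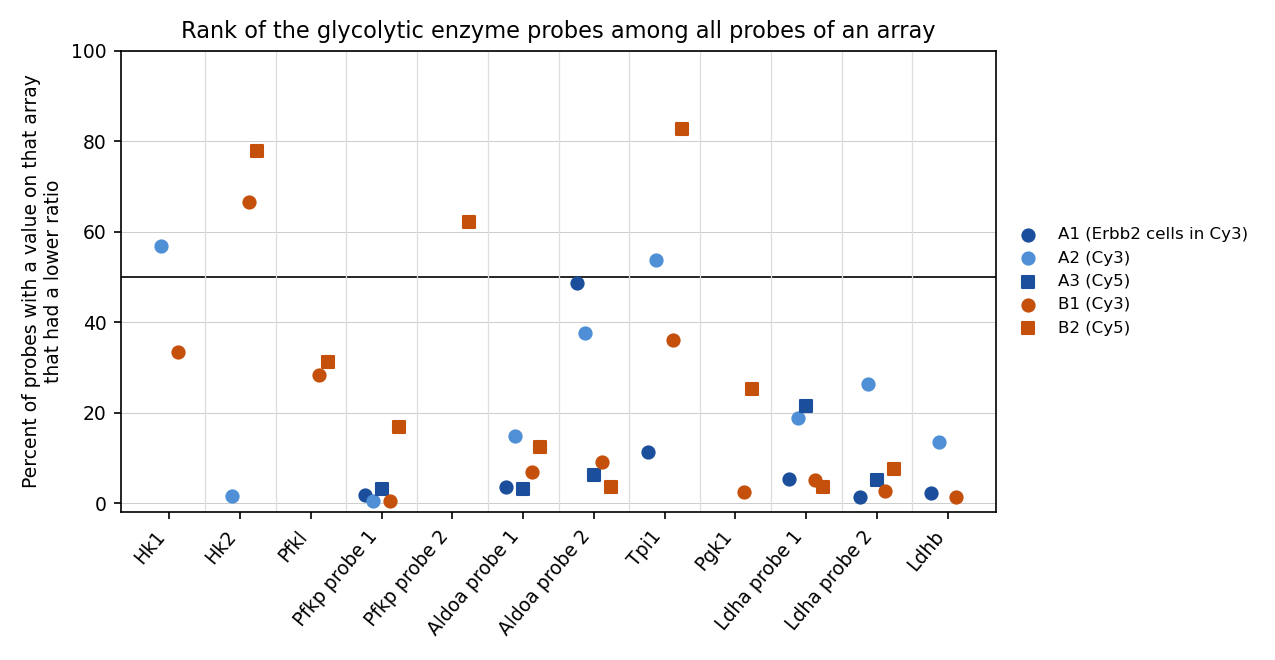
Percent of the probes with a value on an array that had a lower ratio than the probe named (vertical axis, 0 to 100; the line marks 50), 1 point per array, with symbols for dye and colours for preparation. The first Pfkp probe lies at 0.441 on A2 and 16.8 on B2, while Hk1, Hk2 and Tpi1 have points on both sides of 50.

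Differences between preparations and between dye orientations were tested with limma on the 5 arrays for the same 4892 features. The spread in these tests is that between arrays, so their p-values do not measure how preparations vary. No member was called between preparations (0 of 3 at an adjusted p under 0.05, 1 at an unadjusted p under 0.05). Of all features, 0.0204% were called after adjustment and 6.75% before it. Pfkp, the member with the unadjusted call, was higher in B than in A by 0.86 (adjusted p = 0.721). For the dye, 0 of 3 members passed and 1 had an unadjusted p under 0.05, where 0.593% of features were called after adjustment and 13.2% before it. That member was again Pfkp, which was higher by 1.01 with the Erbb2 RNA in Cy5 (adjusted p = 0.282); Aldoa was lower by that measure, at -0.60 (adjusted p = 0.513), and Ldha had -0.05. With 5 arrays, a p that misses the threshold does not show that these values are equal.

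**Figure D3:**
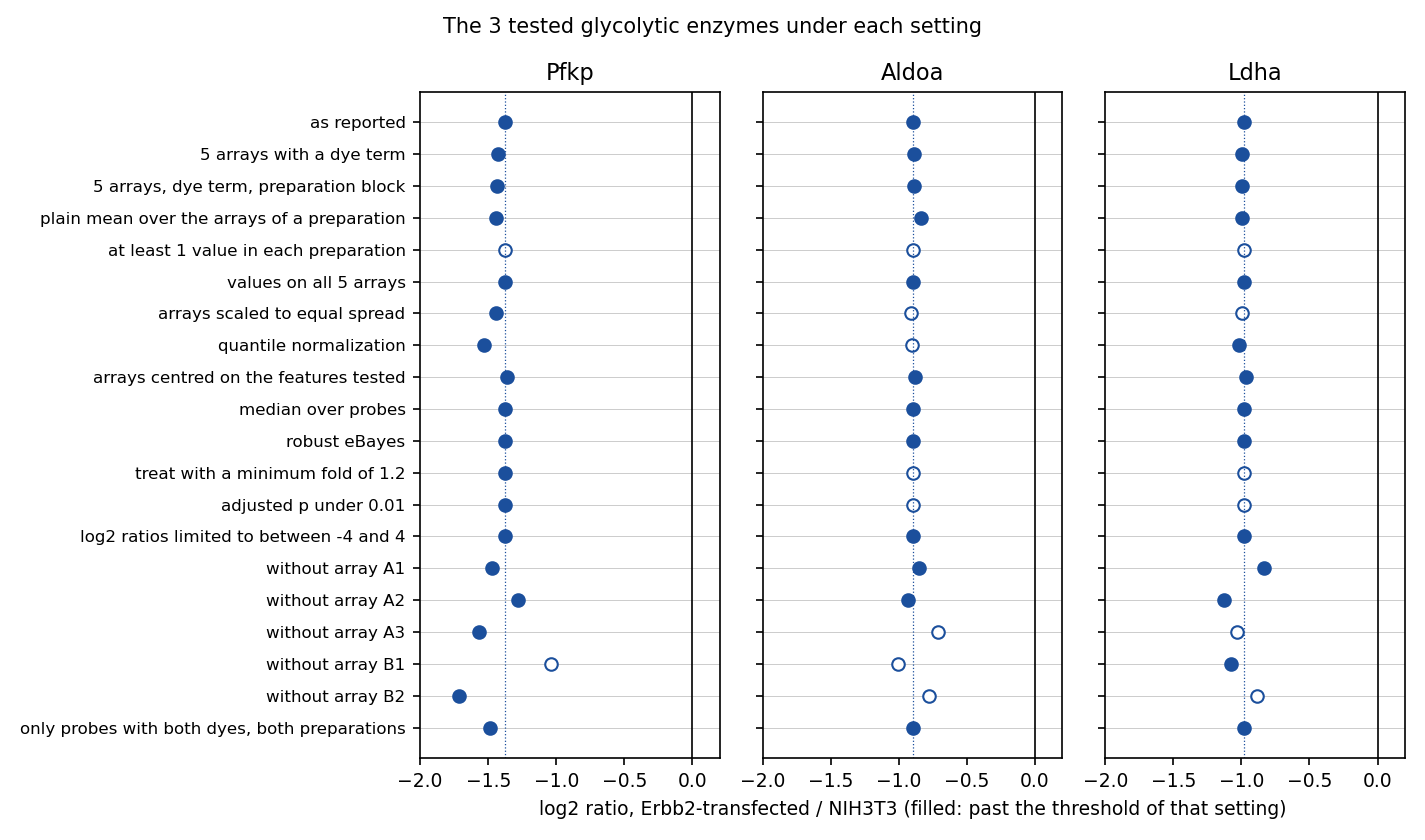
Log2 ratio of Pfkp, Aldoa and Ldha (horizontal axis, 1 panel each) under each way of processing (rows); filled points passed the threshold of that row, open points did not, and the dotted line is the reported value. All points lie below 0, between -1.72 and -1.04 for Pfkp, -1.01 and -0.72 for Aldoa and -1.13 and -0.83 for Ldha; turning the numerator to Cy3 over Cy5, which is not drawn, puts all of them above 0.

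The genes whose ratios over the 5 arrays were most like those of each member that passed were found by the root mean square difference among 2006 genes with values on all 5. For Aldoa these were Eif3h (0.104), Dnajc10 (0.159) and Sptbn1 (0.172). For Ldha they were Npc2 (0.202), Tmed10 (0.254) and Tmbim6 (0.282). For Pfkp they were Id3 (0.491), Zfp36l1 (0.520) and Glt8d1 (0.536), so no gene followed Pfkp as closely as Eif3h followed Aldoa. Neither Aldoa nor Ldha was among the nearest genes of the other; Aldoa minus Ldha was 0.91 on A1 and -0.43 on A3.

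Of the other genes of glycolysis, 13 of 20 listed had a value and 3 were tested, with 0 lower and 0 higher. The tested ones, named after their values were seen, were Aldoc, Eno2 and Ldhc, paralogues expressed mainly in brain, neurons and testis, at -0.20 ± 0.34, 0.16 ± 0.38 and 0.43 ± 0.25 (SD, n = 2; adjusted p = 0.629, 0.716 and 0.244). Eno3, a muscle enolase, had -0.89, -0.59, -1.20 and -1.40 on A1, A2, B1 and B2. Pgk2, the testis form of phosphoglycerate kinase, had -0.56, -0.45 and -0.36 on A2, B1 and B2. Such paralogues are close in sequence to the common forms, so on cDNA probes their separate ratios are uncertain. The same limit holds among the members, between Hk1 and Hk2, Pfkl and Pfkp, and Ldha and Ldhb. Pkm, pyruvate kinase, named after its values were seen, had 0.75 on A2 and 0.33 on B1, opposite in sign to Ldha and Ldhb on the same arrays.

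Of 12 genes of glucose uptake and lactate export, 8 had a value, 2 were tested and 0 passed. These and the following transporters were named after their values were seen. Bsg, the chaperone of the lactate transporters, had -0.48 ± 0.28 (adjusted p = 0.206), and Slc2a12, a glucose transporter, had -0.11 ± 0.11. Slc2a1, the main glucose transporter of cultured fibroblasts, had 0.30, 0.20, -0.28 and 0.11 on A1, A2, B1 and B2. Slc16a3, a lactate exporter, had -0.34 on B1 and -0.92 on B2.

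Among 24 regulators of glycolysis and of the HIF pathway, 5 were tested; 1 was lower, 0 higher and 4 did not pass. Hif1a, the oxygen-regulated subunit of HIF-1, had -0.77 ± 0.09 (SD, n = 2; adjusted p = 0.0465). It was -0.27 on A2 and -0.32 on B1 but -1.39 on A3 and -1.10 on B2, so its ratio was larger in size with the Erbb2 RNA in Cy5. Without A3, B1 or B2 it did not pass (-0.49, -0.97 and -0.58; adjusted p = 0.441, 0.0838 and 0.223), nor after scaling or quantile normalisation (adjusted p = 0.0942 and 0.0817). Of 25 hypoxia-induced genes outside glycolysis, 10 were tested; 2 were lower, 1 was higher and 7 did not pass, with a median of -0.19. Ero1a, an oxidase of the endoplasmic reticulum, had -1.77 ± 0.77 (adjusted p = 0.00225), while Ddit4, which restrains mTOR complex 1, stood at -1.46 ± 0.23 (adjusted p = 0.00180). Ndrg1 was higher, at 1.36 ± 0.54 (adjusted p = 0.00606; 0.0577 after scaling to equal spread). Vegfa, named after its value was seen, had -0.16 ± 0.44. The hypoxia-induced genes therefore had calls on both sides of 0, while 7 of the 10 tested lay below it.

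In the pathways that branch from glycolysis, Prps1, which makes the ribose phosphate donor of nucleotides, was the 1 of 2 tested pentose phosphate genes that was lower, at -1.11 ± 0.04 (adjusted p = 0.00823; -1.01 and 0.0663 without B1). Of 6 tested glycogen genes, Stbd1, which binds glycogen, was higher, at 1.59 ± 0.65 (adjusted p = 0.00315), 0 were lower and 5 did not pass. Of 3 tested genes of pyruvate entry, Pdha1, a subunit of pyruvate dehydrogenase, was lower, at -1.18 ± 0.32 (adjusted p = 0.00791), but with -0.30 on A2 against -2.52 on A3, and without A3 it had -0.63 (adjusted p = 0.313). Of 7 tested genes on the citrate cycle list, 1 was lower and 6 did not pass. The lower one was Idh1, at -1.65 ± 0.05 (adjusted p = 5.89e-04), a cytosolic isocitrate dehydrogenase that acts outside the mitochondrial cycle. The 3 tested genes of the malate-aspartate shuttle, 1 of the glycerol and sugar branch and 1 of the hexosamine pathway did not pass; Slc25a13, Galt and Mgll, untested, had means of 0.69, 0.47 and -0.22 over 3 arrays each. Of the 7 listed gluconeogenesis genes, 0 could be tested, and G6pc3 had 1.03, 0.47 and 1.07 on A1, A2 and B1. Over all these lists, 41 genes were tested, of which 6 were lower, 2 higher and 33 did not pass. Of all features tested, 4.54% were called lower (5.33% of the genes among them) and 6.79% were called in either direction. The median of the 41 genes was -0.23, against -0.02 over all features tested. Of these 41, 32 lay below 0, against 52.0% of all features tested.

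**Figure D4:**
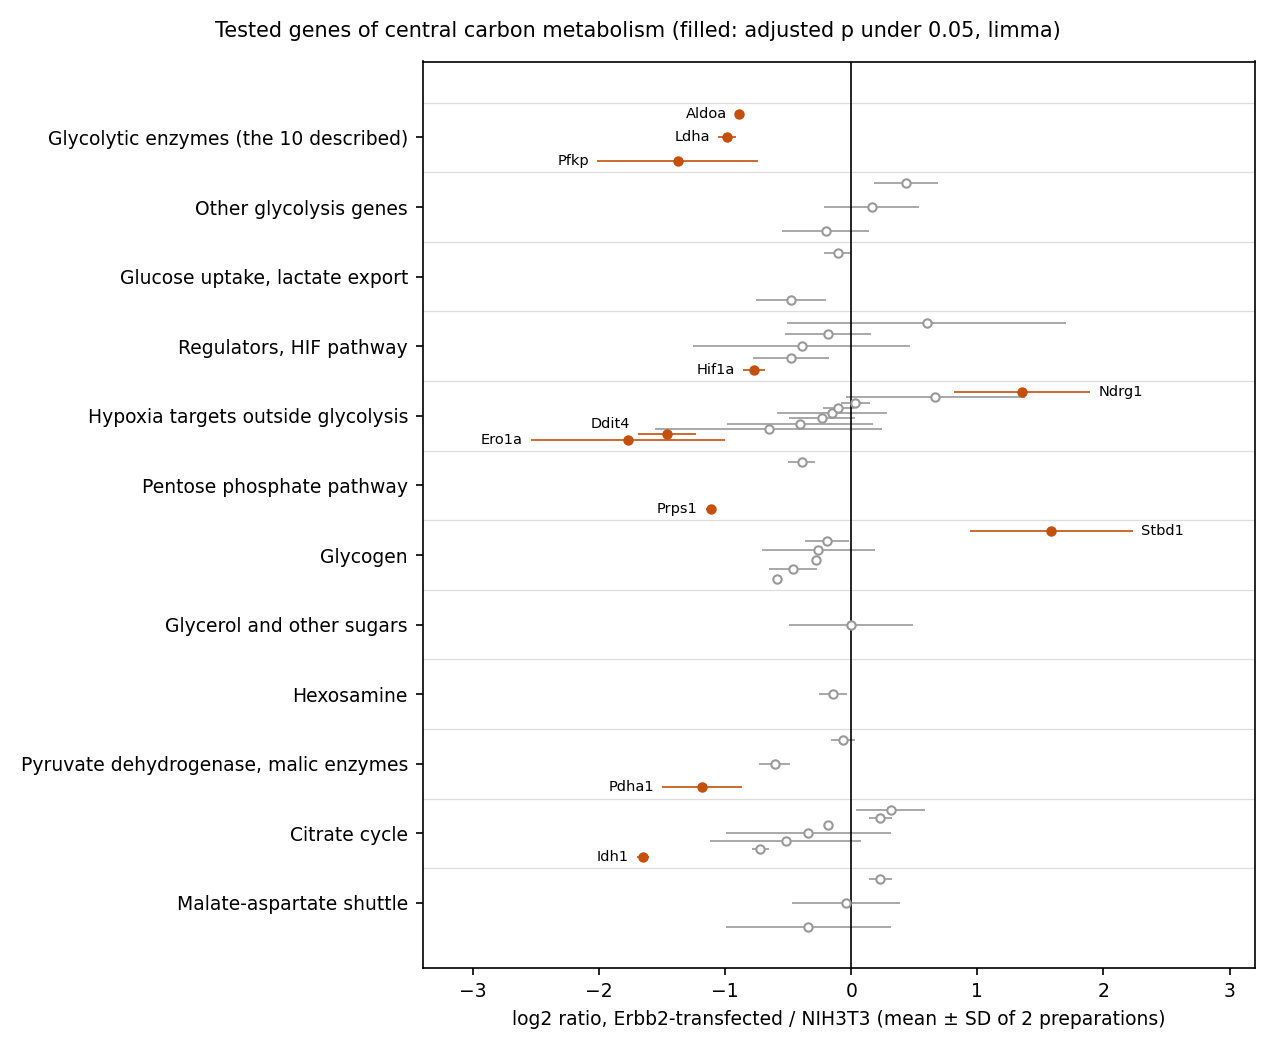
Log2 ratio of Erbb2-transfected over NIH3T3 cells (horizontal axis; mean ± SD of 2 preparations) for each tested gene of the glycolytic enzymes and of the other lists (rows); filled, named points passed at an adjusted p under 0.05 by limma, open grey points did not. Pfkp, Ldha and Aldoa lie at -1.38, -0.98 and -0.89, and Ndrg1 and Stbd1 are the points called above 0, at 1.36 and 1.59.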

How the data were processed

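RNA of both cell lines was compared on 5 two-colour arrays. Per the labels, the authors read the slides on a GenePix instrument, took mean intensities less background and set each array's median ratio to 1. Why some values are empty is not stated in these sources. The deposited values behave as log2 ratios: between 5.91% (B1) and 20.3% (A2) of an array's values lay a log2 ratio of small whole numbers (up to 100, tolerance 1e-06) away from its commonest value, against at most 0.447% after a shift, 0.776% in natural and 1.19% in decimal logarithms. As deposited, arrays of unlike dye orientation had negative correlations (r between -0.54 and -0.17 across probes), and values were turned here to Erbb2+ over NIH3T3.

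The platform annotation gives 1 symbol to 11723 of the 20205 probes and several to 806, and does not list 7676. All 9 members with a probe kept their symbol in a RefSeq gene table of GRCm38.p6. All 10 members had entries in the promoter table of that build, from which the sequences come. The RefSeq spans of Pfkp, Aldoa and Ldha reach further upstream than any of their windows, and those parts were not searched. Probes of a gene were averaged, other probes were kept as features, and preparation means of the 4892 features with both dye orientations in both preparations were tested against 0 (limma 3.58.1, R 4.3.3, functions lmFit and eBayes), with Benjamini-Hochberg adjustment over all of them. Each feature had 1 residual degree of freedom, and the prior had 10.2. Preparation and dye were tested on the 5 arrays in 1 model. Precision is limited by there being 2 preparations, with 5 arrays between them. The procedure was tested on simulated data.

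The members, lists and tests were chosen with earlier results of these data known. Named are all members, up to 4 genes past the threshold per list, or else up to 2 with 1 sign on 3 or more arrays, and the 3 genes most like each member that passed; others are marked where they occur. Alternatives covered replication, dye averaging, filters, normalisation, probe summary, variance, threshold, extreme values, direction and each array left out. Plots and promoter searches used Python 3.11.15 (matplotlib 3.10.9).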

Additional observations from a re-analysis of the deposited data

Results flagged for a closer look

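The hexokinases had opposite signs in the preparations, a difference that was not tested. Hk2 was below 0 on the 1 array of preparation A with a value and above 0 on both of B, with the mean of B above that of A by 2.12. Hk1 had a value on 1 array of each, and that of B was lower, with a difference of -0.28. For Stbd1, array A3, at 2.96, lay far from the other 4, at 0.96 to 1.31; chance sets 1 array apart in this way in about 1 of 20 genes, and 13 genes and 5 single probes were examined.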

How the results depend on the processing

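Pfkp, Aldoa and Ldha stayed below 0 under all 19 alternatives that keep Cy5 in the numerator. Each lay below 0 on all 5 arrays, so averaging them otherwise or leaving an array out could not turn the sign. Pfkp, Aldoa and Ldha missed the threshold in 2, 8 and 6 of these alternatives. Their limma adjusted p ran, in that order, from 1.86e-06 to 0.0575, from 0.00361 to 0.223 and from 0.00120 to 0.0955. The 3 members called lower became 0 with at least 1 value required in each preparation, and 1 after scaling to equal spread, under a minimum fold of 1.2 (treat) and at a threshold of 0.01; they ranged from 1 to 3 when an array was left out. The 332 features called became 462 with the 5 arrays and a dye term in place of preparation means, and 509 with preparation added to that as a random block. Both were fitted to arrays rather than preparations, and the correlation fitted between arrays of a preparation in the block was -0.0489. The features called became 149 with at least 1 value in each preparation, 124 after scaling and 193 after quantile normalisation. They became 148 with treat, 120 at a threshold of 0.01 and 544 with each probe on its own. They became 564 when probes lacking a dye orientation in either preparation were dropped, an alternative chosen after seeing the data. Leaving out an array gave 198 to 498. The cause of these changes was not tested. With Cy3 over Cy5, 0 members were called lower and 3 higher, with Pfkp at 1.38, Aldoa 0.89, Ldha 0.98, Hif1a 0.77, Ero1a 1.77, Ddit4 1.46, Prps1 1.11, Pdha1 1.18, Idh1 1.65, Ndrg1 -1.36 and Stbd1 -1.59. Over the 11 genes named because they passed, 169 values kept their call, 30 lost it and 0 changed sign under the alternatives that keep the numerator. Tested genes that did not pass were left out. Each of the 11 had the same sign on all its arrays with a value, so its sign was largely fixed beforehand.

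Features called between preparations ranged from 1 to 25 and those called for the dye from 2 to 256 when an array was left out (1 and 29 with all arrays); no member was among them. With the repetition number as a replicate block in place of the dye term, 1 feature and 0 members were called between preparations. The block thus changed no call of a member. Deviations from the preparation means correlated at 0.03 for A1 and B1 and at -0.37 for A2 and B2, the arrays that share a repetition number. Preparation B has 2 arrays, so their deviations are equal in size and opposite in sign. The 0.37 for A2 and B1, which share a dye orientation, is thus the value for A2 and B2 with its sign turned. These correlations therefore cannot settle whether number or dye pairs the arrays.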
